A study of Mus musculus with 1087 samples.

Results

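The genes described here are those of the mitochondrial respiratory chain, complexes I to IV, and of ATP synthase, which is counted as complex V. They were chosen by symbol alone: protein-coding entries of the deposited count table whose GRCm38 symbol begins with Ndufa, Ndufb, Ndufc, Ndufs, Ndufv, Sdha to Sdhd, Uqcr, Cox4 to Cox8, Atp5, mt-Nd, mt-Co, mt-Cyt or mt-Atp, without pseudogenes. Of 46078 genes in the table, 110 met the rule. Mitochondrial DNA encodes 13 of them, 84 are nuclear genes of subunits, and 13 are nuclear genes of assembly factors that share the prefix (Ndufaf1 to Ndufaf8, Sdhaf1 to Sdhaf4 and Atp5s). The mitochondrially encoded members make 7 subunits of complex I, 1 of complex III, 3 of complex IV and 2 of complex V. The nuclear subunit genes belong to complex I (36), II (4), III (8), IV (20) and V (16), with Ndufa4 and its relative Ndufa4l2 placed in complex IV, where the Ndufa4 protein is known to sit.

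The respiratory chain passes electrons from NADH, through complex I, and from succinate, through complex II, to complex III and then to oxygen at complex IV. Complexes I, III and IV pump protons across the inner mitochondrial membrane, and ATP synthase uses the returning protons to make ATP. All complexes but II are assembled from subunits of both genomes, so a cell has to make products of the nucleus and of mitochondrial DNA in parallel. Blood stem cells are known for low mitochondrial activity, while developing red cells need mitochondria for heme.

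Single mouse cells were sequenced from the AGM, the embryonic tissue of aorta, gonads and mesonephros, in which blood cells bud from the aortic wall in intra-aortic clusters. Every group came from Gata2V/+ embryos, bred from wild-type C57BL/6HsdJOla mothers and Gata2V/V fathers, and so carried 1 Gata2 allele that reports through the fluorescent protein Venus; every cell was named KitHi. The tissue was digested with collagenase, and live cells were stained for CD31, cKit and CD27 and sorted. Of 1087 cells, 10.9% were CD27+ cells of E11.5, whose Venus level is not stated. G2VInt cells (intermediate Venus) made up 8.00% from E10, 11.96% from E11 and 25.7% from E11.5, and G2VLo cells of E11.5 (low Venus) 43.4%. Neither embryos nor litters nor sorts are named in the labels. Each group is therefore 1 sample without replicates, cells of 1 group do not stand in for replicates, nothing was tested, and every difference below describes these libraries.

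Median depth was 621544 reads per cell in CD27+ cells, 2121423, 2212898 and 1892779 on the 3 days in G2VInt cells, and 539090 in G2VLo cells. Library numbers fell into blocks that did not mix groups; the block of CD27+ cells lay between blocks of G2VLo cells in 1 number series, apart from those of all G2VInt cells. So depth, library block and group cannot be told apart. The labels also give the authors' clusters, made from these same counts. Defining endothelial markers were all above 10 CPM (reads scaled to an equal total per group) in clusters 1 and 2 (5 of 5), endothelial and hematopoietic markers in clusters 7 and 8 (5 of 5 each), macrophage markers in clusters 5 and 6 (5 of 5 in G2VLo cells) and erythroid markers in clusters 10 and 11 (5 of 5 at E11.5 in G2VInt cells). Cluster 10 also held myeloid markers and, of the 3 mast cell markers, 1 above 10 CPM, given below. Levels of nuclear genes are given in nuclear CPM, in which the reads on nuclear genes are the total. Levels of mitochondrially encoded genes are given in CPM over all genes. Both are shares of a library, so less RNA of a gene per cell and more of all other RNA cannot be told apart.

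The 13 mitochondrially encoded members did not come out evenly in the table. Reads lay on 7 of them, the complex I subunit genes mt-Nd1, mt-Nd2, mt-Nd4, mt-Nd5 and mt-Nd6, the complex III gene mt-Cytb and the complex IV gene mt-Co1, which together held 21309909 reads or 99.8% of the total. The other 6, mt-Co2, mt-Atp8, mt-Atp6, mt-Co3, mt-Nd3 and mt-Nd4l, are neighbours on the circle, from mt-Co2 (chrM:7013-7696) to mt-Nd4l, and shared 40768 reads or 0.191%. Over the 5 groups their levels were 1.24 to 31.6 CPM per kb, while mt-Nd1, mt-Co1 and mt-Cytb had 2376 to 4932 CPM per kb. The mRNAs of this stretch are known to be abundant in mouse cells, so their values here were not read as expression. The reference holds a pseudogene copy of 5 of the 6 in a row on chromosome 1: Gm28661 of mt-Co2 (681 of 684 bases aligned, 100% identical), Gm10925 of mt-Atp6, Gm28437 of mt-Co3, Gm28438 of mt-Nd3 (1 base different) and Gm10222 of mt-Nd4l. The copies were low too: Gm28661 had 1.86 to 3.15 CPM over the groups, and mt-Co2 3.36 to 5.98 CPM. The part of such copies in the low values was not tested, and mt-Atp8, which overlaps mt-Atp6, has no annotated copy of its own. Among the 7 well-read genes, mt-Nd4 has a copy over 63.6% of its length, mt-Co1 has copies in 2 genes that together cover 100% of it, the longest on chromosome 2 at 97.6% identity, and with near-complete identity over 31.3% of its length, and the other 5 have none. The first 60 aligned bases of mt-Co2 and of mt-Nd3 with their copies (Gm28661 at chr1:24614885-24615565 and Gm28438 at chr1:24612775-24613119, both on the minus strand) show how alike they are, with capitals for the base that differs:
mt-Co2: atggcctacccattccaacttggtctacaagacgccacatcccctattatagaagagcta
Gm28661: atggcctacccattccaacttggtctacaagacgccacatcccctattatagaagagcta
mt-Nd3: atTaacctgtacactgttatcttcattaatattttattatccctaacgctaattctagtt
Gm28438: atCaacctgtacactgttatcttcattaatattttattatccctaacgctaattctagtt

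**Figure D1:**
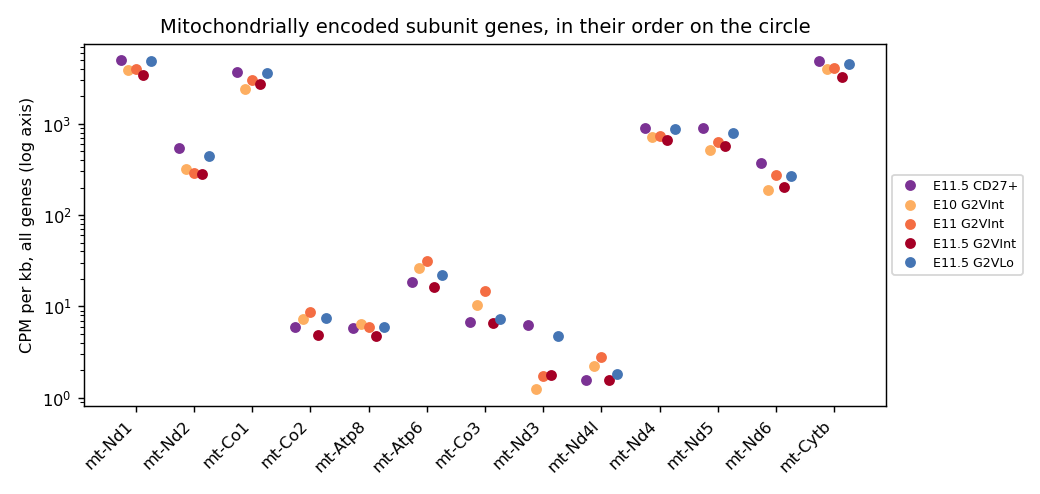
Level of each mitochondrially encoded member in CPM per kb (log axis), in gene order on the circle, for the 5 groups; each point is the summed reads of 1 group. The 6 neighbours from mt-Co2 to mt-Nd4l lie at 1.24 to 31.6 CPM per kb in every group, below all points of the other 7 genes.

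Of the 7 well-read mitochondrial mRNAs, 6 were higher in CD27+ and in G2VLo cells than in G2VInt cells of any day. The exception was mt-Nd6. It had 193.8 CPM in CD27+ cells, 98.6, 141.8 and 105.7 on the 3 days in G2VInt cells, and 139.9 in G2VLo cells. Its reads have a strand limit, given below. mt-Co1, the catalytic subunit of complex IV, had 5677 CPM in CD27+ cells, 3671, 4645 and 4154 on days E10, E11 and E11.5 in G2VInt cells, and 5613 in G2VLo cells. mt-Cytb, the central subunit of complex III, had 5568 CPM in CD27+ cells, 4564, 4644 and 3703 CPM on the 3 days in G2VInt cells, and 5127 CPM in G2VLo cells. mt-Nd1, a membrane subunit of complex I, had 4720 CPM in CD27+ cells, 3683, 3823 and 3287 CPM on these days in G2VInt cells, and 4693 CPM in G2VLo cells. In each of these genes the E11.5 G2VInt group was lower than both other E11.5 groups. Cells of 1 group spread widely and overlapped those of the others: mt-Cytb ran from 2717 to 11864 CPM (median 5394) in CD27+ cells, from 1080 to 11382 CPM (median 3568) in E11.5 G2VInt cells, and from 794 to 21417 CPM (median 5049) in G2VLo cells.

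Summed over the 13 genes, mitochondrial mRNA took 1.96% of the reads of CD27+ cells, 1.43%, 1.58% and 1.35% on the 3 days in G2VInt cells, and 1.87% in G2VLo cells. Single cells ran from 1.07% to 4.09% (median 1.93%) in CD27+ cells, from 0.337% to 7.45% (median 1.31%), from 0.203% to 5.09% (median 1.54%) and from 0.548% to 3.59% (median 1.33%) on the 3 days in G2VInt cells, and from 0.724% to 5.51% (median 1.83%) in G2VLo cells. The widest ranges were those of E10 and E11, and all 5 groups overlapped. The share in G2VInt over that in G2VLo cells was 0.722, and all 7 well-read genes were lower in G2VInt cells, from mt-Nd2 (ratio 0.642) to mt-Nd4 (0.756). Within clusters 1, 2, 7 and 8 this ratio was 0.731, 0.704, 0.673 and 0.706, about the same in endothelial as in hematopoietic clusters. CD27+ over G2VInt cells gave 1.45, with all 7 genes higher in CD27+ cells, from mt-Nd4 (1.34) to mt-Nd2 (1.93). CD27+ over G2VLo cells gave 1.05. The days gave 1.10 for E11 over E10, 0.945 for E11.5 over E10 and 0.858 for E11.5 over E11, and the first 2 ratios fell on either side of 1 among alternative settings (0.956 to 1.23 and 0.764 to 1.06), so no direction is given for them.

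The mitochondrial rRNA genes, which are no members, differed in the same direction as mitochondrial mRNA between the E11.5 groups and by more. By day they did not: the ratio was 1.38 for rRNA and 0.858 for mRNA in E11.5 over E11, and 2.00 and 0.945 in E11.5 over E10. The rRNA genes took 6.06% of the reads of CD27+ cells, 0.776%, 1.13% and 1.55% on the 3 days in G2VInt cells, and 4.71% in G2VLo cells. CD27+ and G2VLo cells were also the shallower libraries. Within each group, cells with more mitochondrial rRNA tended to have more mitochondrial mRNA (Spearman's rho across cells 0.60 in CD27+ cells, 0.65, 0.64 and 0.62 on the 3 days, and 0.56 in G2VLo cells; cells of 1 group share their library batch). With cells of 500000 to 2000000 reads alone, the mitochondrial mRNA ratio was 0.753 for G2VInt over G2VLo and 1.39 for CD27+ over G2VInt. The part of library making in either difference was not tested.

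**Figure D2:**
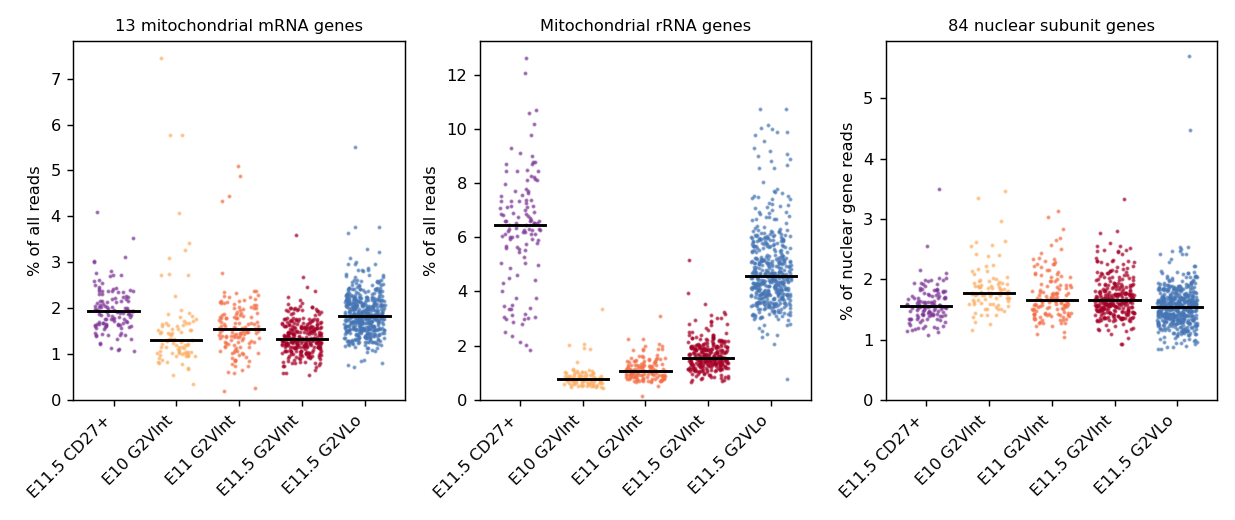
Share of reads per cell on the 13 mitochondrially encoded mRNA genes (left) and on mitochondrial rRNA genes (middle), in percent of all reads, and on the 84 nuclear subunit genes (right), in percent of nuclear gene reads; each point is 1 cell and each line the median of a group. The mRNA medians are 1.93% in CD27+, 1.31%, 1.54% and 1.33% in G2VInt and 1.83% in G2VLo cells, while the nuclear subunit medians lie between 1.54% and 1.78%.

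Between clusters of 1 group, mitochondrial mRNA was lowest in hematopoietic cluster 7 in every group, among clusters of 10 or more cells: 1.78% in CD27+ cells, 1.29%, 1.31% and 1.09% on the 3 days in G2VInt cells, and 1.62% in G2VLo cells. At E11.5 in G2VInt cells the erythroid-marker clusters 10 and 11 had 1.63% and 1.53%, hematopoietic cluster 8 had 1.26%, and endothelial clusters 1 and 2 had 1.41% and 1.38%. With cells of 500000 to 2000000 reads alone, the share of cluster 10 over cluster 2 was 1.02 (1.62% and 1.59%), against 1.18 with all cells. At E11 cluster 10 had 2.04%. In G2VLo cells the clusters with macrophage markers, 6 and 5, had 2.02% and 1.78%, cluster 9 had 1.96%, cluster 8 had 1.79%, and clusters 1 and 2 had 1.93% and 1.96%. Of the 7 genes, mt-Nd6, the complex I subunit encoded on the light strand, differed most from the others. Its level was 1.95 and 1.82 times that of cluster 2 in clusters 10 and 11 (G2VInt). In clusters 5 and 6 (G2VLo) it was 1.92 and 1.86 times that of cluster 2. mt-Nd6 lies on the opposite strand to the others and overlaps mt-Nd5. The strand setting of the counting is not given, so reads of the opposite strand there cannot be told from those of mt-Nd6.

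Of the 84 nuclear subunit genes, 75 were read in at least 90% of cells (12 of 20 in complex IV), and their levels per kb of exon differed over several orders of magnitude. Pooled over all cells, the median was 69.3 nuclear CPM per kb. Complex V held the highest, the ATP synthase beta and alpha subunits Atp5b (669) and Atp5a1 (593), which occur in 3 copies per enzyme. In complex IV, Cox4i1, the common form of subunit 4, had 485, Cox8a 403.9 and Cox6b1 362.7 nuclear CPM per kb. Medians by complex were 57.98 for I, 115.7 for II, 123.1 for III, 35.8 for IV and 82.3 for V, and the low median of complex IV goes with its tissue-restricted isoforms, down to Cox8c at 0.00164. Of the 97 nuclear members, 85 passed the limits used below (10 nuclear CPM in 1 of the groups compared, in which 5% of cells or more had a read) in all 39 comparisons. Atp5l, Cox4i2, Cox6b2, Ndufa4l2 and Sdhaf1 passed in some, and Atp5g2, Cox6a2, Cox7a1, Cox7b2, Cox8b, Cox8c and Ndufb4 in none. A stretch of near-identical sequence elsewhere in the transcriptome was found for 19 of the 84 subunit genes, over more than 50% of the length for 5 of them, and 35 overlap another gene; the strand setting of the counting is not given, so reads of overlapping genes cannot be told apart.

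Unlike the mitochondrial mRNAs, the summed nuclear subunit genes lay close together in all groups. They took 1.61% of nuclear reads in CD27+ cells, 1.80%, 1.71% and 1.69% on the 3 days in G2VInt cells, and 1.56% in G2VLo cells. Single cells ran from 1.07% to 3.50% in CD27+ cells, from 1.16% to 3.47%, from 1.05% to 3.14% and from 0.919% to 3.33% on the 3 days, and from 0.838% to 5.70% in G2VLo cells. Complex V had the largest part, with 0.671% in CD27+ cells, 0.811%, 0.757% and 0.728% on the 3 days, and 0.683% in G2VLo cells. Complex II, which has no mitochondrially encoded subunit, had 0.0809% in CD27+ cells, 0.127%, 0.118% and 0.103% on the 3 days, and 0.0934% in G2VLo cells. Across the cells of a group the mitochondrial mRNA share and the nuclear subunit share were only loosely related (Spearman's rho 0.12 in CD27+ cells, 0.35, 0.33 and 0.09 on the 3 days, and -0.02 in G2VLo cells).

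Gene by gene, few nuclear subunits differed by 1.5-fold or more between groups, the size used here to call a difference. E11 over E10 gave 1 subunit gene higher and 1 lower of 75 measured, where 10.7% of all genes were higher and 2.9% lower. E11.5 over E11 gave 1 higher and 1 lower of 76 (all genes 9.23% and 10.1%), and E11.5 over E10 gave 2 higher and 1 lower of 76 (all genes 13.8% and 9.87%). These comparisons share samples. The genes were the isoforms Cox4i2 and Cox6b2, described below, with Atp5k, a small ATP synthase subunit (24.8 nuclear CPM at E11.5 and 16.2 at E11), and Ndufa3, an accessory subunit of complex I (71.4 at E11.5 and 46.99 at E10). The median log2 ratio over the subunit genes was -0.05, 0.08 and 0.03, and over all genes 0.02, -0.14 and -0.08. The shares of subunit genes past the fold were below those of all genes in each of these comparisons and in both directions. With cells of 500000 to 2000000 reads alone, E11.5 over E10 gave 1 higher and 7 lower of 76 (all genes 16.1% and 14.05%). In that range Ndufa3 was not past the fold in E11.5 over E10 (log2 ratio 0.32). Nor were Atp5k (0.57) and Cox4i2 (-0.12) in E11.5 over E11.

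Within hematopoietic clusters 7 and 8 the counts past the fold were small as well, except for E11.5 over E11 in cluster 8. E11 over E10 in cluster 8 gave 1 higher and 1 lower (all genes 14.5% and 6.69%), again Cox6b2 and Cox4i2. E11.5 over E11 in cluster 7 gave 3 higher and 0 lower (all genes 4.57% and 9.87%). E11.5 over E10 gave 2 higher, Cox6b2 and Atp5k, and 1 lower, Ndufs1 (148.1 nuclear CPM at E11.5 and 240.7 at E10), in cluster 7 (all genes 14.6% and 11.51%), and 3 higher and 0 lower in cluster 8 (all genes 13.1% and 10.8%). E11.5 over E11 in cluster 8 gave 11 higher and 0 lower (all genes 7.32% and 12%), led by Cox6b2, Atp5k (27.7 and 15.2 nuclear CPM), Uqcr11 (84.7 and 46.8), a small subunit of complex III, Ndufa1 (21.02 and 12.1) and Ndufv3 (106.6 and 62.6), both accessory subunits of complex I; the median log2 ratio was 0.22, against -0.06 over all genes. In cluster 7, E11 over E10 gave 2 lower (all genes 8.74% lower and 17.7% higher). They were Ndufs1, an iron-sulfur subunit of complex I (153.04 and 240.7 nuclear CPM, log2 ratio -0.65), and Sdhd, a membrane anchor of complex II (172.1 and 266.2 nuclear CPM, -0.63). Neither was past the fold when each cell weighed the same (-0.52 and -0.57).

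Between the Venus gates at E11.5, 2 of 75 subunit genes were higher in G2VInt cells and 0 lower (all genes 6.46% and 3.5%). The median log2 ratio, 0.13, was that of all genes. The genes were Cox6b2 and Ndufa3. Ndufa3 had 38.3 nuclear CPM in CD27+ cells, 46.99, 49.7 and 71.4 on the 3 days in G2VInt cells, and 38.7 in G2VLo cells. G2VInt over G2VLo cells gave a log2 ratio of 0.89 for Ndufa3, and 0.74, 0.90, 0.79 and 1.02 within clusters 1, 2, 7 and 8, so the size was alike in endothelial and hematopoietic clusters. The subunit genes past the fold were 1 higher and 0 lower in cluster 1 (all genes 10.9% and 4.56%), 1 and 1 in cluster 2 (all genes 7.38% and 1.85%), and 3 and 0 in cluster 7 (all genes 12.3% and 5.2%). Ndufa3 overlaps Tfpt, which had 21.3 nuclear CPM in E11.5 G2VInt and 17.8 in G2VLo cells. Within cluster 8, 8 subunit genes were higher in G2VInt cells and 0 lower (all genes 11.3% and 6.61%), among them Ndufa1 (21.02 and 12.4 nuclear CPM), Uqcr10 of complex III (125.4 and 76.4) and Cox4i2.

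CD27+ over G2VLo cells gave 2 of 76 higher, Cox4i2 and Cox6b2, and 0 lower (all genes 8.36% and 11.8%). CD27+ over G2VInt cells gave 2 higher, Cox4i2 and Atp5l, and 2 lower, Ndufa3 and Cox6b2 (all genes 7.36% and 17%); Atp5l has a near-identical pseudogene over 57.4% of its length and is uncertain. The 4 mesenchyme markers were all above 10 CPM in CD27+ cells, at 178.95 CPM in sum, against 17.6 in E11.5 G2VInt and 32.1 in G2VLo cells with 1 above 10 CPM each, and none was at 0. In clusters 7 and 8 of CD27+ cells their sums were 4.20, with 1 marker at 0, and 3.12. The part of these cells in the differences over all cells was not tested. For the comparisons within clusters given next, G2VInt and G2VLo cells were placed by the authors' clustering of all cells. Within cluster 7, CD27+ over G2VLo cells gave 1 higher and 0 lower (all genes 15.3% and 18.4%), and CD27+ over G2VInt cells 1 higher, Atp5g3 (388.8 and 222.2 nuclear CPM), and 2 lower (all genes 12.4% and 23.3%). Within cluster 8, Sdha, the catalytic subunit of complex II that oxidises succinate, had 343.3 nuclear CPM in CD27+ cells, 606 in G2VInt cells and 547 in G2VLo cells. Its log2 ratio there was -0.82 against G2VInt and -0.67 against G2VLo cells. Of all genes, 9.1% and 6.74% were higher and 16.9% and 8.14% lower in these comparisons. The number of subunit genes past the fold there is not given here, so Sdha does not speak for the subunit genes as a set. Over all cells Sdha had 343.6 nuclear CPM in CD27+ cells, 660, 616 and 510 on the 3 days, and 464.8 in G2VLo cells. The other complex II genes spread less at E11.5: Sdhb, the iron-sulfur subunit, had 227.9, 214.96 and 216.6 nuclear CPM in CD27+, G2VInt and G2VLo cells, and Sdhd had 141.8, 180.5 and 157.2.

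**Figure D3:**
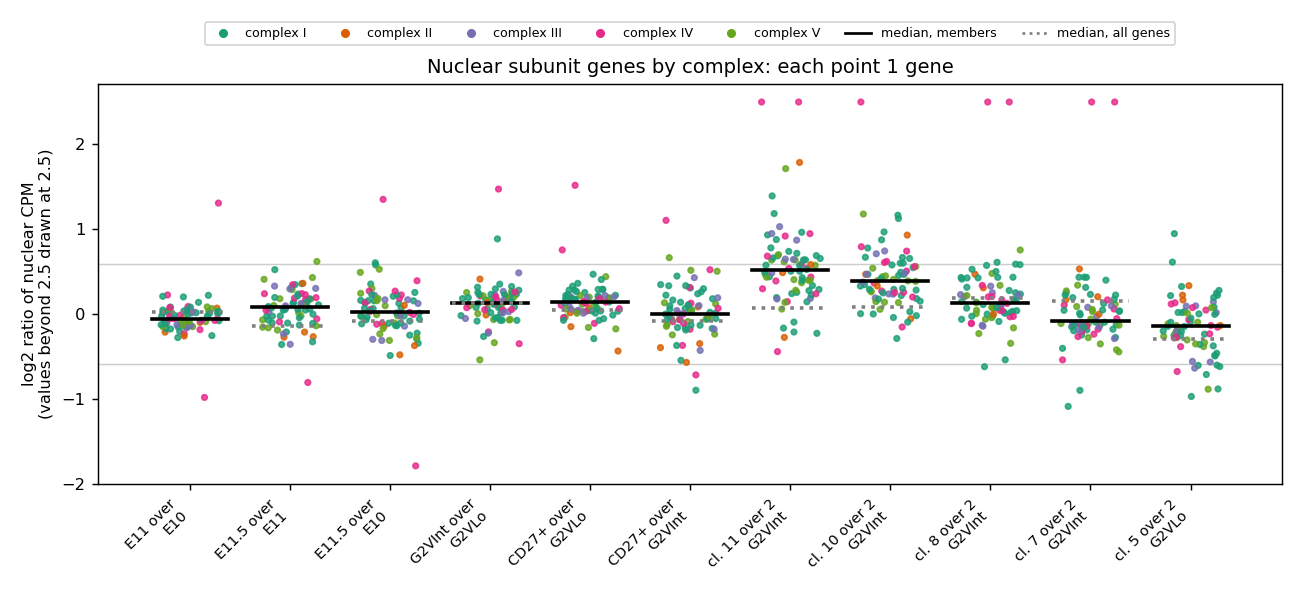
Log2 ratio of nuclear CPM for each measured nuclear subunit gene (1 point a gene, coloured by complex) in 11 comparisons; black lines are medians of the subunit genes, dotted lines medians of all genes, grey lines 1.5-fold, and points beyond 2.5 are drawn at 2.5. Medians between groups lie from -0.05 to 0.14, and those of clusters 11 and 10 over cluster 2 at 0.52 and 0.39.

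Nuclear subunit genes differed more between clusters than between groups. In G2VInt cells of E11 and E11.5 they were highest in the clusters with erythroid markers, among clusters of 10 or more cells. At E11.5 in G2VInt cells they took 2.33% of nuclear reads in cluster 11 (13 cells, 2.02% to 2.77%, median 2.31%) and 2.10% in cluster 10 (23 cells, 1.52% to 3.33%, median 2.04%). Endothelial cluster 2 had 1.64% (54 cells, 1.15% to 2.80%, median 1.62%), cluster 1 had 1.52%, and hematopoietic clusters 8 and 7 had 1.83% and 1.63%. The ranges overlapped, and no cell of cluster 11 was below the median of cluster 2. Cluster 10 also held 811 nuclear CPM of Mpo, a granule enzyme of myeloid cells, and 235.7 of Cpa3, of mast cells. At E11 it held 536 of Mpo and 698 of Cpa3. Its marker sums at E11.5 were 949.6 nuclear CPM for erythroid, 927.0 for myeloid and 237.1 for mast cell markers. At E11 they were 712.1, 587.6 and 703.1. So cluster 10 was not erythroid by markers alone, and the part of cells with the other markers was not tested.

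In cluster 11 over cluster 2, 31 of 76 measured subunit genes were higher and 0 lower, against 30.9% higher and 31.6% lower of all genes; 70 of the 76 ratios were positive, where 52.3% of all genes were. The median log2 ratio was 0.52, and 0.07 over all genes. By complex, 14 of 35 were higher in I, 1 of 4 in II, 5 of 8 in III, 6 of 14 in IV and 5 of 15 in V. The parts in II and V were near the 30.9% of all genes, and those in IV include Cox6b2 and Ndufa4l2. Both genes were measured through cluster 11 alone, so their calls were bound to appear. Apart from Cox6b2 and Ndufa4l2, described below, the largest were Sdhd (477 nuclear CPM in cluster 11 and 138.2 in cluster 2, log2 ratio 1.79), Atp5g1, which makes the c subunit of the rotor ring (46.4 and 14.1, 1.71), Ndufs7, an iron-sulfur subunit of complex I (504 and 191.9, 1.39), and Ndufb10 of the membrane arm (211.9 and 93.2, 1.18). The mitochondrial mRNA share of cluster 11 over cluster 2 was 1.11, with a median over cells of 1.62% and 1.36%.

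In cluster 10 over cluster 2, 19 of 75 subunit genes were higher and 0 lower (all genes 28.2% and 27.5%). The part that was higher past the fold was thus not above that of all genes. The median log2 ratio was 0.39 (all genes 0.08), and 69 ratios were positive, where 53.5% of all genes were. Leading genes were Atp5g1 (32.003 and 14.1 nuclear CPM), Ndufb10 (209.04 and 93.2), Ndufa6 (183.6 and 84.1) and Ndufv3 (136.6 and 69.9). With cells of 500000 to 2000000 reads alone, 12 genes were higher and the median log2 ratio was 0.25 (all genes 0.06). The count was 11 when each cell weighed the same. Against hematopoietic cluster 8, cluster 10 had 23 higher and 1 lower of 76 at E11 (all genes 19.5% and 29.4%) and 6 higher and 1 lower at E11.5 (all genes 16.1% and 26.1%), and cluster 11 had 17 higher and 1 lower of 77 (all genes 17.6% and 32.3%). For cluster 10 at E11.5 the part higher was below that of all genes. The gene past the fold lower in all 3 comparisons with cluster 8 was Cox4i2. It was measured there through cluster 8 alone, so this call was bound to appear. Ndufa1, an accessory subunit needed to build the membrane arm, had 50.9 nuclear CPM in cluster 10 and 12.1 in cluster 8 at E11, a log2 ratio of 2.07.

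The clusters with macrophage markers lay at the other end. In G2VLo cells nuclear subunit genes took 1.37% of nuclear reads in cluster 6 and 1.28% in cluster 5 (65 cells, 0.838% to 1.97%, median 1.25%), against 1.57% in cluster 2. The highest share among clusters of 10 or more G2VLo cells was 1.81%, in cluster 9 (23 cells, 1.36% to 2.11%, median 1.84%). Of its 5 erythroid markers, 0 were above 10 CPM. Cluster 5 over cluster 2 gave 2 higher and 9 lower of 74 (all genes 22.2% and 37.1%). Lower genes included Ndufv1, the subunit that binds NADH (104.1 and 204.2 nuclear CPM, log2 ratio -0.97), Atp5b (1545 and 2855, -0.89) and Ndufa8 (82.7 and 152.6, -0.88). Ndufv3 and Ndufa13 were the higher ones, at 127.7 and 66.2 and at 95.4 and 62.4 nuclear CPM. The median log2 ratio, -0.15, was above that of all genes, -0.29. Cluster 6 over cluster 2 gave 3 higher and 7 lower (all genes 24.7% and 39.6%).

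Hematopoietic and endothelial clusters differed in a few subunit genes. Cluster 7 over cluster 2 gave 2 higher and 2 lower of 76 in G2VInt cells (all genes 25.1% and 16.9%), and cluster 8 over cluster 2 gave 5 higher and 1 lower (all genes 26.5% and 19.4%). In G2VLo cells each gave 2 higher and 2 lower (all genes 26.7% and 17.8% for cluster 7, 27.2% and 17.2% for cluster 8). Ndufa8, an accessory subunit of complex I of the intermembrane space, was lower in hematopoietic cells in both gates: 98.6 nuclear CPM in cluster 7, 120 in cluster 8 and 183.96 in cluster 2 of G2VInt cells, and 88.5, 90.4 and 152.6 in these clusters of G2VLo cells. Ndufa1 had 14.4 nuclear CPM in cluster 7 and 30.6 in cluster 2 of G2VInt cells, and 11.0 and 27.6 in G2VLo cells. The endothelial clusters 1 and 2 differed in no subunit gene past the fold (0 in either gate; all genes 9.06% higher and 4.88% lower in G2VInt, 9.59% and 4.78% in G2VLo cells).

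**Figure D4:**
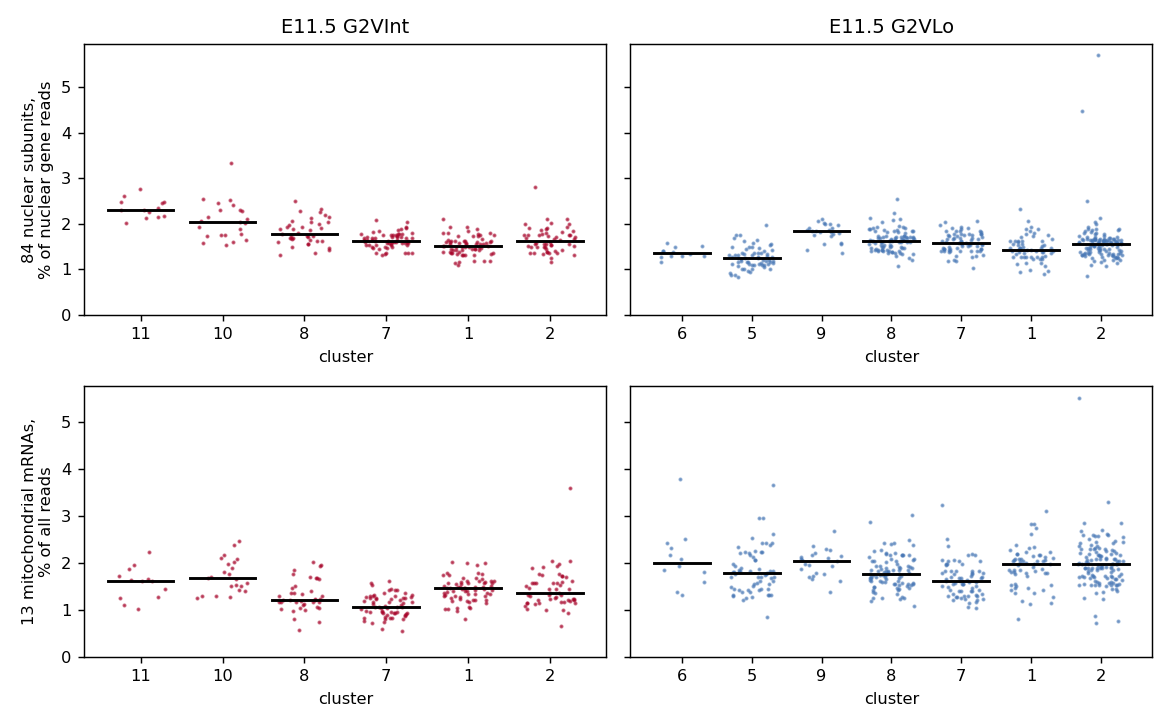
Share per cell of the 84 nuclear subunit genes in nuclear gene reads (top) and of the 13 mitochondrially encoded mRNA genes in all reads (bottom), in percent, by authors' cluster for E11.5 G2VInt (left) and G2VLo cells (right); points are cells and lines medians. Nuclear subunit medians reach 2.31% in cluster 11 and 2.04% in cluster 10, against 1.62% in cluster 2, and 1.25% in cluster 5 of G2VLo cells.

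Several subunits of complex IV exist in a common and a tissue-restricted form, and these isoforms held the widest differences. A form under the CPM limit on the lower side was measured through the higher side alone, which favours a call past the fold. The coding sequences of Cox4i2 (ENSMUSG00000009876, chr2:152754173-152765037, plus strand) and of its common partner Cox4i1 (chr8:120668222-120674207, plus strand) are identical at 76.6% of their aligned bases, and those of Cox6b2 (ENSMUSG00000051811, chr7:4751792-4753094, minus strand) and Cox6b1 (chr7:30616861-30626151, minus strand) at 72.2%. No near-identical copy was found for Cox4i2 or Cox6b2, so their reads can be told from those of the partners. The first 90 coding bases of each are shown, with capitals where a base differs from the partner or has no counterpart in it:
Cox4i2: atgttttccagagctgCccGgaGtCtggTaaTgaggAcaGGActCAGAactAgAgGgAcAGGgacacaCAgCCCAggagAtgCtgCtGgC
Cox4i1: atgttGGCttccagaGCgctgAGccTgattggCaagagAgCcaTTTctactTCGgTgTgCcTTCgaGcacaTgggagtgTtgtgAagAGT
Cox6b2: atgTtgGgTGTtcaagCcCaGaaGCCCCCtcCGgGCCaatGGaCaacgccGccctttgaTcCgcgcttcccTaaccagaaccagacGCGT
Cox6b1: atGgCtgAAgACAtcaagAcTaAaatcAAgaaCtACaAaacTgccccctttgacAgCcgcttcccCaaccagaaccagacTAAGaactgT

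Cox4i2, the form of subunit 4 known from lung and for its oxygen-dependent expression, was highest in clusters 7, 8 and 9 here. It was read in 7 of 20 cells of cluster 10 at E11. In the macrophage-marker clusters of G2VLo cells it was read in 8 of 65 cells (cluster 5) and 1 of 12 (cluster 6). In cluster 8 it had 25.01 nuclear CPM in CD27+ cells (exact Poisson 95% interval 23.5 to 26.6, counting error only), 40.5, 25.3 and 34.6 on the 3 days in G2VInt cells, and 21.7 in G2VLo cells. Cluster 7 was lower in every group, with 15.8 nuclear CPM in CD27+ cells, 17.9, 15.1 and 14.3 on the 3 days, and 8.20 in G2VLo cells. Cluster 9 of G2VLo cells, with 2003 nuclear CPM of Mpo, had 20.5. Endothelial cluster 2 had 0.396 in G2VInt and 0.547 in G2VLo cells, and the erythroid-marker clusters 10 and 11 had 1.29 and 0.117 at E11.5, the first from 41 reads of 1 cell and the last from 3 reads. Among E11.5 G2VInt cells thinned to 100000 reads, 74.4% of cluster 8 had a read of Cox4i2 (95% interval 57.9 to 86.96) and 3.70% of cluster 2 (0.452 to 12.7). Cells of cluster 8 ran from 0 to 106.5 nuclear CPM with a median of 29.9, so the level varied among cells. Cluster 8 over cluster 2 was 87.4-fold. The level of cluster 2 came from 48 reads, 52.1% of them in 1 cell, and without that cell the fold was 178.3. In cluster 8, 1 cell gave 20.8% of the reads, and without it the level was 29.4 nuclear CPM. Both folds keep that cell. Cox4i2 was measured there through cluster 8 alone, so a call past the fold was bound to appear. The same holds for clusters 10 and 11 against cluster 8. Cluster 8 over cluster 7 gave a log2 ratio of 0.66 in CD27+ cells, 1.18, 0.75 and 1.28 on the 3 days in G2VInt cells, and 1.41 in G2VLo cells. In CD27+ cells it was 0.43 when each cell weighed the same. Cox4i2 was the only subunit gene past the fold in this comparison except for Ndufb3 in CD27+ cells (54.04 and 34.2 nuclear CPM). Of all genes, 14.4% were higher and 15.3% lower in CD27+ cells, and 9.31% and 9.72% in G2VLo cells. On the 3 days these shares were 9.01% and 11.9%, 9% and 14%, and 7.88% and 12.2%.

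Over all cells of a group, Cox4i2 had 17.5 nuclear CPM in CD27+ cells, 28.2, 14.3 and 8.15 on the 3 days in G2VInt cells, and 6.12 in G2VLo cells. The cell medians were 7.49, then 16.4, 0.951 and 0 on the 3 days, and 0 in G2VLo cells. E11.5 over E10 gave a log2 ratio of -1.79, but -0.23 within cluster 8. HC1, the authors' class of clusters 7 and 8, held 72.4%, 59.2% and 36.6% of the G2VInt cells on the 3 days. Likewise CD27+ over G2VLo cells gave 1.52 over all cells and 0.25 within cluster 8, though 1.17 within cluster 7. CD27+ over G2VInt cells gave 1.10 over all cells and -0.20 within cluster 8. With cells of 500000 to 2000000 reads alone, the 1.17 was 0.56 and the 1.10 was 0.46. In these CD27+ comparisons, G2VInt and G2VLo cells were placed by the authors' clustering of all cells. The cluster levels of G2VInt and G2VLo cells given above follow the clustering without CD27+ cells, so they do not give these ratios. Over all cells the E11.5 G2VInt and G2VLo levels were under the limit. In these comparisons Cox4i2 was thus measured through the other group alone. At 6.12 in G2VLo cells a call past the fold was bound to appear. These differences of Cox4i2 were smaller or reversed in sign within cluster 8. The Venus gates went the other way. Over all cells Cox4i2 had 8.15 nuclear CPM in E11.5 G2VInt and 6.12 in G2VLo cells, both under the limits. Within cluster 8 it was past the fold and higher in G2VInt cells, though not past it under median-of-ratios scaling (log2 ratio 0.58). The part of the make-up of a group by cluster in any of these differences was not tested. Its partner Cox4i1 had 752 nuclear CPM in CD27+ cells, 704, 678 and 801 on the 3 days, and 775 in G2VLo cells.

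Cox6b2, known as the testis form of subunit 6B, was highest in the erythroid-marker clusters. In G2VInt cells of clusters 7 and 8 it was higher at the later days. Cluster 11 had 101.1 nuclear CPM (13 cells, 0 to 416.3, median 82.0), of which 1 cell gave 35.7% of the reads; without it the level was 71.2. Cluster 10 had 45.1 nuclear CPM at E11.5 and 37.6 at E11, and endothelial cluster 2 had 4.74 at E11.5, all in G2VInt cells. Cluster 2 was under the limit, so Cox6b2 was measured against it through the other cluster alone. A call past the fold was bound to appear there. Clusters 6 and 5 of G2VLo cells had 0.821 and 0.893. In cluster 8, Cox6b2 had 14.4 nuclear CPM in CD27+ cells, 7.97, 16.4 and 34.04 on the 3 days in G2VInt cells, and 12.5 in G2VLo cells; in cluster 7 it had 14.2 nuclear CPM in CD27+ cells, 10.3, 15.2 and 27.9 on the 3 days, and 14.9 in G2VLo cells. In both clusters CD27+ and G2VLo cells, also of E11.5, were below G2VInt cells of E11. With cells of 500000 to 2000000 reads alone, E11.5 over E11 in cluster 7 gave a log2 ratio of 0.38. The differences of Cox6b2 between E11.5 and E10 and between the Venus gates were past the fold within clusters 7 and 8 too. E11.5 over E10 gave a log2 ratio of 1.35 over all cells, 1.43 in cluster 7 and 2.10 in cluster 8. G2VInt over G2VLo cells gave 1.47, 0.90 and 1.44. Cox6b2 was under the limit at E10 over all cells and in cluster 8, and over all G2VLo cells. Both sides were above it in cluster 7, and in cluster 8 between the gates. CD27+ over G2VInt cells gave -0.72, -1.01 and -1.09, while CD27+ over G2VLo cells gave 0.76 over all cells but 0.04 and 0.20 within these clusters. The 0.76 was 0.57 when each cell weighed the same. For these CD27+ ratios within clusters, G2VInt and G2VLo cells were placed by the clustering of all cells. Their cluster levels above follow the clustering without CD27+ cells and do not give these ratios. Its partner Cox6b1 had 220 nuclear CPM in CD27+ cells, 243.3, 240.9 and 284.4 on the 3 days, and 237.4 in G2VLo cells.

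Ndufa4l2 (chr10:127514967-127517154, plus strand), a relative of Ndufa4 known as a target of the hypoxia factor HIF1, had 495 reads in all, of which the erythroid-marker clusters 10 and 11 of E11.5 G2VInt cells held 75.4%. Cluster 11 of 13 cells had reads in 4, or 12.1 nuclear CPM (95% interval 10.8 to 13.5), and 6.67 without the cell that gave 48.7% of them. Cluster 10 had 63 reads in 3 of 23 cells, and clusters 2 and 8 had 0 reads, which allows up to 0.0247 and 0.0467 nuclear CPM at 3 reads a cluster. Against that level cluster 11 was at least 488-fold higher than cluster 2, and at least 269.7-fold without its cell with most reads. Ndufa4l2 passed the limits through cluster 11 alone, where it is high, so a difference there was bound to appear. It overlaps Shmt2, which had 506 nuclear CPM in cluster 11, 306.8 in cluster 8 and 145.1 in cluster 2. Its relative Ndufa4 had 214.7 nuclear CPM in CD27+ cells, 233.2, 228.7 and 214.5 on the 3 days, and 194.02 in G2VLo cells.

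Other restricted isoforms were at or near 0. Cox6a2, the heart and muscle form of subunit 6A, had 5 reads in CD27+ cells, 10, 23 and 0 on the 3 days in G2VInt cells, and 7 in G2VLo cells. Cox7a1, the muscle form of subunit 7A, had 0.637 nuclear CPM in CD27+ cells, 0.403, 0.458 and 0.450 on the 3 days, and 0.834 in G2VLo cells. Cox7b2 had 11 reads, all in G2VLo cells, and Cox8c 1 read in all. Of the 3 genes that encode the same c subunit of ATP synthase, Atp5g3 had 420 nuclear CPM in CD27+ cells, 274.7, 260.2 and 293.98 on the 3 days, and 371.6 in G2VLo cells, Atp5g1 had 18.8 to 26.6 and Atp5g2 2.20 to 3.43 over the groups.

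**Figure D5:**
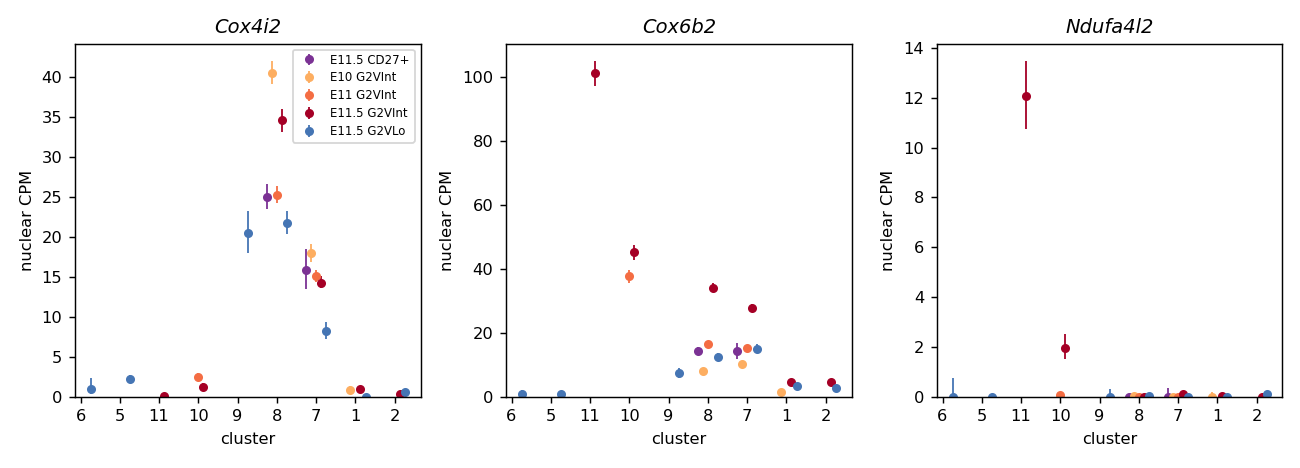
Level of Cox4i2, Cox6b2 and Ndufa4l2 in nuclear CPM by cluster and group (linear axes that start at 0); points are summed reads of the cells of a group in a cluster, and bars exact Poisson 95% intervals, which cover counting error only. CD27+ cells are placed by the authors' clustering of all cells. Cox4i2 peaks in cluster 8 (21.7 to 40.5), Cox6b2 in cluster 11 (101.1) and Ndufa4l2 in cluster 11 (12.1).

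The 13 assembly factors among the members behaved partly unlike the subunits. Between groups, over all cells, they had median log2 ratios from -0.16 (E11.5 over E11) to 0.32 (CD27+ over G2VLo), and 1 was past the fold: Ndufaf4, a complex I factor, lower at E11.5, at 48.8 nuclear CPM at E11.5 and 73.4 at E10. In cluster 10 over cluster 2, 7 of 13 were higher and 0 lower (median 0.61; all genes 28.2% and 27.5%), and in cluster 11 over cluster 2, 4 of 13 were higher and 1 lower (median 0.42; all genes 30.9% and 31.6%). Ndufaf1, which acts early in complex I assembly, had 78.4 nuclear CPM in cluster 11, 72.5 in cluster 10, 53.7 in cluster 8, 60.7 in cluster 7 and 27.2 in cluster 2, all in E11.5 G2VInt cells. In cluster 5 over cluster 2 of G2VLo cells, 2 were higher and 5 lower of 12 (all genes 22.2% and 37.1%), among the lower Ndufaf4 (19.2 and 49.4) and Ndufaf5 (20.7 and 48.5).

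Other mitochondrial genes, listed by function, were set beside the members. Of all genes, 30.9% were higher and 31.6% lower in cluster 11 over cluster 2. In cluster 11 over cluster 2, 52 of 75 measured genes of the mitochondrial ribosome were higher and 1 lower (median log2 ratio 0.82), led by Mrps26 (227.6 and 59.02 nuclear CPM), as were 13 of 20 genes of mitochondrial DNA upkeep and RNA with 0 lower (0.79; Fastkd2, 99.8 and 35.8), 5 of 13 of the citric acid cycle with 0 lower (0.43; Idh3a, 362.6 and 142.4), 4 of 8 carriers with 0 lower (0.73; Ucp2, 632 and 141.7) and 12 of 31 other assembly factors with 3 lower (0.46; Cox17, a copper chaperone of complex IV, 34.2 and 6.85). Regulators went both ways, with 3 higher and 4 lower of 10 (-0.02): Myc had 528 and 191.5 nuclear CPM, while Epas1, the hypoxia factor of endothelium, had 0.544 and 112.7. In cluster 10 over cluster 2, 32 of 75 ribosome genes were higher and 1 lower (0.50; all genes 28.2% and 27.5%). In cluster 5 over cluster 2 of G2VLo cells, where 22.2% of all genes were higher and 37.1% lower, 10 of 75 ribosome genes were lower and 1 higher (-0.23), 9 of 19 genes of DNA upkeep and RNA were lower and 1 higher (-0.47), and 6 of 9 regulators were lower and 0 higher (-1.23). Between the Venus gates over all cells the lists had medians of 0.11 to 0.21 and 1 gene past the fold, Cox11 (all genes 6.46% higher and 3.5% lower).

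Promoters of 67 nuclear subunit genes were found in RefSeq (GRCm38.p6), 72 windows of 250 bases before the start site. The core GCATGCGC of NRF1, a known activator of respiratory chain genes, was in 8 of them on either strand (11.1%, against 2.26% of 32851 windows of all genes), and the ETS core CCGGAAG, which the activator GABP can bind, in 12 (16.7%, against 6.91%). The YY1 core AAGATGG was in 1 (1.39%, against 4.49%), the GATA core AGATAA in 6 (8.33%, against 9.99%), CCAAT in 30 (41.7%, against 33.8%) and the E-box CACGTG in 6 (8.33%, against 6.02%). Matches of different motifs overlapped in 0 of the 72 windows, and a match is a run of letters, since binding was not measured. Since Cox6b2 varied by cluster and day while Cox6b1 was read at a steady level, their promoters are shown, with motif matches in capitals (chr7:4753095-4753344 and chr7:30626115-30626364, both minus strand). Cox6b2 holds CCAAT on the opposite strand as ATTGG, and Cox6b1 holds CCAAT boxes and the ETS core as CTTCCGG:
Cox6b2: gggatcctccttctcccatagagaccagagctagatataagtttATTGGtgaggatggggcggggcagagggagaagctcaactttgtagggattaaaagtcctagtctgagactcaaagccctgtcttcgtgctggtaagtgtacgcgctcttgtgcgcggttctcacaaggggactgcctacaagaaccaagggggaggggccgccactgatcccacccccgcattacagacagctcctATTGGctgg
Cox6b1: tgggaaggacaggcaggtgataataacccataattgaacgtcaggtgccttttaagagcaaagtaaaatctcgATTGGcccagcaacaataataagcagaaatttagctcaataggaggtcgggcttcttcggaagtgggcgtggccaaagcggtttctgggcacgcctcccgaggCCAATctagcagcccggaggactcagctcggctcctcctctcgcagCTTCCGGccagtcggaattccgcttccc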

How the data were processed

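Messenger RNA of 1087 cells was sequenced from Nextera XT libraries on an Illumina HiSeq, per the labels. The authors deposited 1 table of raw read counts per Ensembl gene, made with HTSeq 0.6.0 on GRCm38, per the submitters' processing notes; the aligner, annotation release, strand setting and read filters are not given in the sources used here. No molecular identifiers are mentioned, so PCR copies were counted as reads, and all intervals and floors cover counting error only. Of 46078 genes, 45229 were matched to GENCODE M21 symbols; the 849 others held 0.0859% of 1380367268 reads. Depth ran from 117369 to 6999570 reads per cell.

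Counts were summed over the cells of a group or cluster. Nuclear CPM divides by reads on genes outside mitochondrial DNA. A gene was measured at 10 nuclear CPM in 1 side and a read in 5% of its cells, and called at 1.5-fold; clusters needed 10 cells. No test was run, since each group is 1 sample. Clusters are the authors', without CD27+ cells for G2V cells and of all cells for comparisons with CD27+ cells. Cells were thinned at random to 100000 reads for shares of cells with a read. Intervals are exact Poisson or Clopper-Pearson at 95%, and a count of 0 allows 3 reads. Near-identical copies were sought with BLAST 2.17.0+ (97% identity, 50 bases). Python 3.11.15, pandas 2.3.3 and scipy 1.17.1 were used. The ratio calculation was tested on simulated data. Named genes were, in each comparison, up to 5 subunit genes past the fold in each direction, tissue-restricted isoforms with their partners, the c-ring genes and Sdha to Sdhd; other genes named, and which of these were printed, were chosen after their values were seen. The members and lists were chosen with earlier results of these data known. Alternatives changed the scaling, the weight of cells, the depth range, the clusters, the library numbers and the limits.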

Additional observations from a re-analysis of the deposited data

Results flagged for a closer look

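Mitochondrial rRNA genes lie outside the members, and their share of reads differed between groups by more than 1.5-fold in 3 comparisons. The share at E11.5 over that at E10 in G2VInt cells was 2.00 (1.55% and 0.776% of reads). G2VInt over G2VLo cells gave 0.330 (1.55% and 4.71%), and CD27+ over G2VInt cells gave 3.90 (6.06% and 1.55%). The mitochondrial mRNA ratios in these comparisons were 0.945, 0.722 and 1.45. What the difference rests on was not tested, and library block, depth and group cannot be told apart.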

How the results depend on the processing

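No direction past 1.5-fold reversed under any alternative run, and a smaller ratio that changed side was not counted as a reversal. Alternatives were run for Cox4i2, Cox6b2, Ndufa4l2, Ndufa3, Ndufa8, Ndufa1, Sdhd, Ndufs1, Sdha, Atp5g1, Ndufs7, Uqcr10 and Atp5k, where these were past the fold. Of their values, 27 were no longer past the fold under an alternative, all with the same sign, and the rest stayed past it. The 27 included values of Ndufs1, Sdhd, Ndufa3, Atp5k, Cox4i2 and Cox6b2 given with their comparisons above. Among the others, Ndufa3 and Atp5k in E11.5 over E10 within cluster 8 had 0.33 and 0.30 in the depth range. Atp5k in E11.5 over E10 within cluster 7 had 0.49 with equal cell weights. Ratios of the other genes named were not run under alternatives. The other values are listed by setting in the order CD27+ over G2VInt, CD27+ over G2VLo, E11 over E10, E11.5 over E10, E11.5 over E11 and G2VInt over G2VLo. The mitochondrial mRNA ratio was 1.45, 1.05, 1.10, 0.945, 0.858 and 0.722 as reported. It was 1.39, 1.04, 0.956, 0.764, 0.799 and 0.753 with cells of 500000 to 2000000 reads. It was 1.46, 1.06, 1.01, 0.853, 0.847 and 0.727 with the lower library numbers of each group and 1.44, 1.03, 1.23, 1.06, 0.862 and 0.716 with the upper ones. The mean of cell shares gave 1.43, 1.05, 1.02, 0.866, 0.847 and 0.735, and their medians 1.45, 1.05, 1.18, 1.01, 0.861 and 0.725. Reads outside rRNA, a setting chosen after seeing the data, gave 1.52, 1.06, 1.11, 0.953, 0.862 and 0.699. Without U1 and U2 cells it was 1.41, 1.01, 1.11, 0.944, 0.849 and 0.716. Without 2 cells over 15% mitochondrial reads it was 1.45 for CD27+ over G2VInt and 0.723 for G2VInt over G2VLo cells.

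The median log2 ratio of subunit genes, 0.01, 0.14, -0.05, 0.03, 0.08 and 0.13 as reported, became -0.073 (CD27+ over G2VInt) and 0.19 (G2VInt over G2VLo) with CPM over all genes. With cells of 500000 to 2000000 reads it was -0.11, 0.14, -0.18, -0.18, 0.0022 and 0.25, and E11 over E10 was -0.10 when each cell weighed the same. With median-of-ratios scaling it was 0.090 (CD27+ over G2VInt), 0.22 (E11.5 over E11) and 0.0091 (G2VInt over G2VLo). The number of subunit genes past the fold was 4, 2, 2, 3, 2 and 2. In the depth range it was 8 (E11.5 over E10; 1 higher and 7 lower, against 2 and 1 as reported), 0 (E11.5 over E11) and 4 (G2VInt over G2VLo), and with equal cell weights 1 for CD27+ over G2VLo and 1 for E11.5 over E11. Median-of-ratios scaling gave 7 (CD27+ over G2VInt) and 5 (E11.5 over E10), and no CPM limit gave 4 (E11 over E10), 5 (E11.5 over E10) and 5 (G2VInt over G2VLo). Leaving out the cell with most reads, for Cox4i2 and Ndufa4l2, was also chosen after seeing the data. The cause of these shifts was not tested. No paired analysis was possible because the labels name no embryo or litter and each group is 1 sample. In CD27+ and G2VLo cells, depth limits genes under 10 nuclear CPM.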
